A study of Mus musculus with 10 samples.

Results

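The 9 genes described here encode transcription factors of granulosa cells and of the gonad: Foxl2, Nr5a1, Nr5a2, Esr1, Esr2, Wt1, Gata4, Gata6 and Nr0b1. They were taken by gene symbol from a table of 55487 mouse genes, and each symbol matched 1 row. Whole mouse ovaries of the C57BL/6J strain were sequenced as separate libraries. The study asked how the ovary changes with advanced age and after injection of CEFFE, a cell-free extract of fat tissue. The 4 Control ovaries came from mice of 8 weeks that were given saline. The 3 Aged ovaries came from mice of 11 months by the labels, which were also given saline, and the methods of the study state a younger age for them. The 3 Aged+CF ovaries came from mice of the age of the Aged group that received 200 μL of CEFFE at 3 μg/μL into the tail vein every other day. All mice, Control included, were injected with 10 IU of PMSG, a gonadotropin that drives follicle growth, 48 h before the ovaries were taken. Every comparison below is therefore one of stimulated ovaries. Control and Aged+CF differ in both age and CEFFE, and no library came from a young mouse given CEFFE.

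Granulosa cells surround the oocyte and make estradiol and inhibins, and their identity is kept by a small set of transcription factors. FOXL2 holds the granulosa fate and holds back the testis program, while the orphan nuclear receptors SF-1 (Nr5a1) and LRH-1 (Nr5a2), together with GATA4 and GATA6, drive the genes of steroid synthesis. The estrogen receptors ERα (Esr1) and ERβ (Esr2) divide the ovary between them, with ERβ the granulosa cell form and ERα found mainly in theca cells, stroma and surface epithelium. WT1 is a zinc finger factor of immature granulosa cells and of the surface epithelium, and DAX1 (Nr0b1) binds SF-1 and LRH-1 and represses them.

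Between 15761789 and 21318254 reads were counted on genes per ovary. Levels are given as CPM, read counts scaled to a common library size with TMM, in the order of the replicate numbers 31, 32, 33 and 34 for Control, 31, 33 and 34 for Aged and 30, 32 and 34 for Aged+CF. Differences are log2 fold changes with their SE from an edgeR quasi-likelihood fit over the 18956 genes that passed a filter on low counts, and p-values were adjusted over all of these by the Benjamini-Hochberg method. All 9 genes passed the filter, with 2133 reads over the 10 ovaries for Nr0b1, the least counted, and 78921 for Nr5a1, the most counted. The edgeR p-values rest, for each gene, on an estimate of the spread between ovaries that Control, Aged and Aged+CF share. The Aged ovaries therefore also enter the p-values of Aged+CF vs Control. The Aged ovaries varied most among themselves, with a biological coefficient of variation over all genes of 0.378, against 0.209 in Control and 0.193 in Aged+CF. The summed level of 4 oviduct epithelium markers was 337 CPM in Control replicate 33 and 283 CPM in Aged replicate 34, against 1.55 to 32.2 CPM in the other ovaries, and where leaving these ovaries out changed a call of the 9 genes, the values without them are given. In whole ovaries, fewer cells that express a gene and less RNA of it per cell cannot be told apart.

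Of the 9 genes, Esr2 alone changed at an adjusted p under 0.05, and it fell in Aged ovaries against Control. That is 1 of 9, where 15.4% of all genes tested were called. The median log2 fold change of the 9 genes was -0.39, against -0.00053 over all genes tested. Under the looser rule of an unadjusted p under 0.05 with a fold change of at least 1.5, 2 of 9 genes were called, Esr2 and Nr0b1, both lower in Aged, where the share of all genes was 18.2%. The Aged and Control ovaries did not overlap in CPM for 3 of 9 genes, Foxl2, Esr2 and Nr0b1, where the share was 27.5%. All 3 of these shares are close to what 1, 2 or 3 of 9 genes amount to, so the counts do not set the 9 genes apart from the rest of the table. At an unadjusted p under 0.05 without a fold limit 3 of 9 passed, where the share was 31.6%, and DESeq2 called 2 of 9, Esr2 and Nr0b1, where it called 22.6% of all genes.

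With CEFFE, 0 of the 9 genes passed the adjusted threshold in Aged+CF vs Aged by edgeR, where the share of all genes was 0.00528%, a single gene. Under the looser rule 2 of 9 passed, again Esr2 and Nr0b1, both higher in Aged+CF, where 7.96% of all genes were called, and 3 of 9 genes had an unadjusted p under 0.05, where the share was 16.3%. The groups did not overlap for Esr2 alone, 1 of 9, where the share was 18.6%. By the Wald test of DESeq2, 1 of 9 genes passed, Esr2, where 4.04% of all genes did. Against Control, 0 of 9 genes passed in Aged+CF by edgeR, where the share was 0.179%, and 1 of 9, Esr2, passed the looser rule, where the share was 7.69%. There 2 of 9 genes had an unadjusted p under 0.05, as did 14.3% of all genes, and DESeq2 called 1, Foxl2, and 3.87% of all genes. The Aged+CF and Control ovaries did not overlap for 4 of 9 genes, Foxl2, Nr5a2, Esr2 and Gata4, each lower in Aged+CF, where the share was 21.9%. The comparisons share groups: the Aged ovaries stand in both of the first 2, and the Control ovaries in the first and the last, so the values of a gene in them are not independent of each other.

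**Figure D1:**
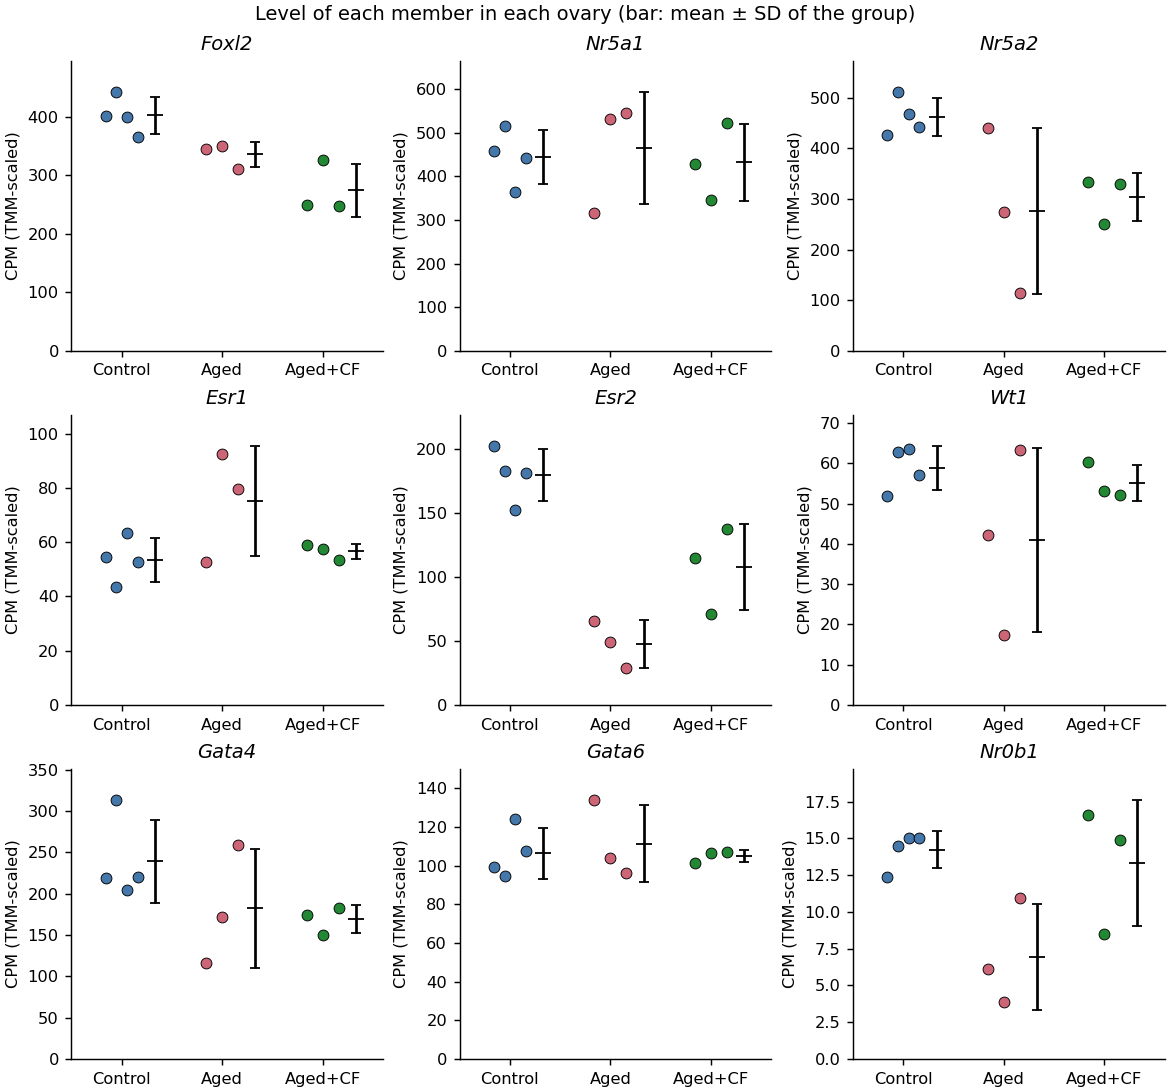
Level of each of the 9 genes in each ovary, in CPM after TMM scaling (vertical axes from 0), for the 4 Control, 3 Aged and 3 Aged+CF ovaries (points, in the order of their replicate numbers), with the mean ± SD of each group as a bar to the right. The 3 Esr2 points of Aged lie at 28.6 to 65.9 CPM, under all points of Control and Aged+CF, while the Gata6 points of the 3 groups lie within 94.6 to 134 CPM.

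**Figure D2:**
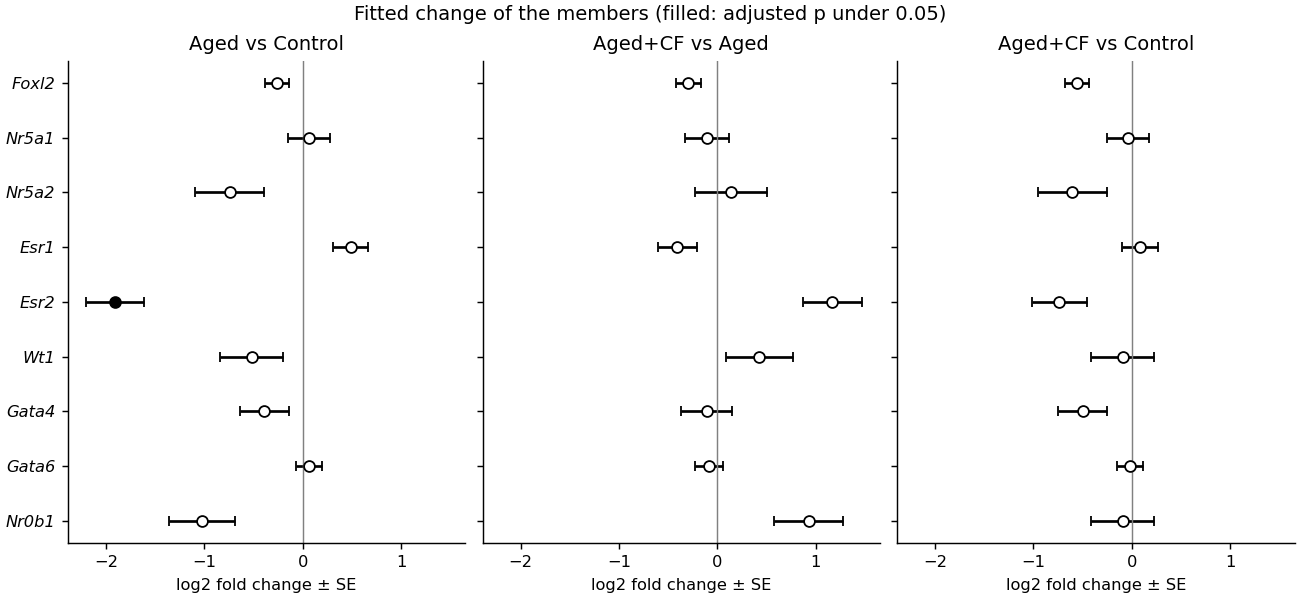
Fitted log2 fold change ± SE of the 9 genes (horizontal axes) in the 3 comparisons, a panel each, with filled points for an adjusted p under 0.05 in edgeR. The only filled point is Esr2 in Aged vs Control at -1.91, and the same gene stands farthest to the right in Aged+CF vs Aged, at 1.17.

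Foxl2, the forkhead factor whose loss lets granulosa cells take on Sertoli cell features, lies on chromosome 9 as a gene of a single exon (chr9:98955288-98958543, plus strand, GRCm38). The Control ovaries had 401, 443, 401 and 366 CPM, the Aged ovaries 346, 351 and 311 CPM and the Aged+CF ovaries 249, 326 and 248 CPM. All Aged and Aged+CF ovaries thus lay under the lowest Control ovary, and Aged+CF replicate 32 lay among the Aged ovaries while the other two Aged+CF ovaries lay under them. Means were 403 ± 31.4 CPM (SD, n = 4) for Control, 336 ± 21.6 CPM (n = 3) for Aged and 274 ± 44.6 CPM (n = 3) for Aged+CF. Aged ovaries were at a log2 fold change of -0.26 from Control (SE 0.12, edgeR adjusted p = 0.173). With libraries scaled by total counts this became a call, at -0.39 (edgeR adjusted p = 0.0442), and without Aged replicate 34 it was -0.17. Aged+CF ovaries were at -0.29 from Aged (SE 0.13, edgeR adjusted p = 0.299). Against Control the difference of Aged+CF was larger than either, with a log2 fold change of -0.55 (SE 0.12, edgeR adjusted p = 0.109). The DESeq2 Wald test gave -0.53 with an adjusted p of 0.00532 for that last comparison.

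Foxl2 has an antisense gene, Foxl2os, whose exons overlap it on the other strand, and the sources used here do not say if counting used the strand. Foxl2os had 19055 reads over the 10 ovaries against 60513 for Foxl2. It averaged 128 ± 18.1 CPM over Control, 91.6 ± 6.02 CPM over Aged and 97.0 ± 12.5 CPM over Aged+CF ovaries. In Aged ovaries it fell by 0.49 on the log2 scale (SE 0.13, edgeR adjusted p = 0.0326), a larger difference than that of Foxl2 itself. Aged+CF and Aged differed in it by 0.08 (SE 0.14, edgeR adjusted p = 0.797). Reads of the overlap could belong to either gene, so the values of Foxl2 carry that uncertainty.

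Nr5a1, which encodes SF-1, the orphan nuclear receptor needed for gonad and adrenal formation, was on average nearly level across the groups. It lies at chr2:38692656-38714542 on the minus strand. Its levels were 458, 514, 363 and 442 CPM in Control, 316, 532 and 545 CPM in Aged and 428, 345 and 521 CPM with CEFFE. Each group spanned much the same range, and the lowest and the highest of the 10 values were both in Aged ovaries. Aged and Control differed by a log2 fold change of 0.06 (SE 0.21, edgeR adjusted p = 0.873), and Aged+CF and Aged by -0.11 (SE 0.23, edgeR adjusted p = 0.846). Its sign is not settled: with libraries scaled by total counts alone the first value was -0.07, and that scaling moved the median of all genes in Aged vs Control to -0.13.

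Nr5a2, which encodes LRH-1, the granulosa and luteal cell paralog of SF-1 that is needed for ovulation, varied most of the 9 genes between Aged ovaries. The gene lies at chr1:136842571-136960448 on the minus strand. Control ovaries had 426, 511, 468 and 443 CPM, the Aged ovaries 441, 274 and 114 CPM and the Aged+CF ovaries 333, 250.1 and 329.5 CPM. Aged replicate 31 stood within the Control range while Aged replicate 34 had the lowest value of the 10 ovaries, a spread of 3.88-fold within the group. The Aged+CF ovaries lay close together and under every Control ovary. On the log2 scale Aged ovaries were at -0.74 from Control (SE 0.35, edgeR adjusted p = 0.178). Those with CEFFE were at 0.14 from Aged (SE 0.37, edgeR adjusted p = 0.877) and at -0.60 from Control (SE 0.35, edgeR adjusted p = 0.453). The first value ran from -1.22 (edgeR adjusted p = 0.0406) without Aged replicate 31 to -0.33 (edgeR adjusted p = 0.240) without Aged replicate 34, and was -0.32 without both ovaries with oviduct RNA. The second was -0.25 in place of 0.14 without Aged replicate 34. In a fit of the Aged+CF and Control ovaries alone, the third was -0.58 with an edgeR adjusted p of 0.0414.

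Promoter windows of 300 bases, from 250 before to 50 after a start site, were taken from RefSeq on GRCm38.p6 for 5 of the 9 genes: Foxl2, Nr5a2, Esr1, Esr2 and Nr0b1. They are shown for the genes with the largest differences in Aged ovaries, Nr5a2, Esr2 and Nr0b1, and were searched on both strands for AGGTCA, the half-site to which nuclear receptors such as SF-1, LRH-1 and the estrogen receptors bind, and for AGATAA, to which GATA factors bind. The motifs do not overlap one another, and matches stand in capitals. Nr5a2 has 2 windows, and the one shown lies at the 5′ end of the gene as GENCODE places it (chr1:136960399-136960698, minus strand).
Nr5a2: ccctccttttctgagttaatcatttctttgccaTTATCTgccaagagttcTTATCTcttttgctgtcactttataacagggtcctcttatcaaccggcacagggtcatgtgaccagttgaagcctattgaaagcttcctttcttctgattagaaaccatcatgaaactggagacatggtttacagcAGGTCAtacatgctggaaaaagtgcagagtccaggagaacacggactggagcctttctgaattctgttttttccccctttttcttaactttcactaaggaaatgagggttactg
This window holds AGGTCA once, 64 bases before the start, and AGATAA on the opposite strand at 217 and 200 bases before it, where it reads TTATCT. Over the 32851 promoter windows of the table, 16.3% hold the half-site and 11.2% the GATA site, so neither is rare. The other Nr5a2 window and those of Foxl2 and Esr1 hold neither. The letters TAAACA, a forkhead site, and GCGGGGGCG, a WT1 site, were in none of the windows of the 5 genes, and 13.4% and 2.91% of all windows hold them.

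Esr1, the gene of ERα, spans chr10:4611593-5005614 on the plus strand. It was counted at 54.4, 43.5, 63.5 and 52.9 CPM in Control, 52.8, 92.7 and 79.8 CPM in Aged and 58.9, 57.7 and 53.6 CPM with CEFFE. Aged replicates 33 and 34 lay above all Control and Aged+CF ovaries, and Aged replicate 31 lay among them. Aged vs Control gave a log2 fold change of 0.49 (SE 0.18, edgeR adjusted p = 0.0967), and Aged+CF vs Aged gave -0.41 (SE 0.20, edgeR adjusted p = 0.335). The first was 0.72 (edgeR adjusted p = 0.0225) without Aged replicate 31 and 0.33 (edgeR adjusted p = 0.261) without Aged replicate 33. Aged+CF and Control were close, with a log2 fold change of 0.08 (SE 0.18, edgeR adjusted p = 0.876).

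Esr2, the gene of ERβ, through which estradiol acts on granulosa cells, lies at chr12:76120419-76177259 on the minus strand and showed the largest difference of the 9 genes. In Control, Esr2 was at 202, 183, 152 and 181 CPM, against 65.9, 49.1 and 28.6 CPM in Aged and 115, 71.2 and 137 CPM with CEFFE. The 3 groups did not overlap: all Aged+CF ovaries lay above all Aged and under all Control ovaries, with Aged+CF replicate 32 close to Aged replicate 31. Means were 179.6 ± 20.5 CPM (SD, n = 4) for Control, 47.9 ± 18.7 CPM (n = 3) for Aged and 108 ± 33.6 CPM (n = 3) for Aged+CF. In Aged ovaries Esr2 fell by 1.91 on the log2 scale (SE 0.29, edgeR adjusted p = 0.00589), which is 3.75-fold lower, and it stood at rank 228 of the 18956 genes by p. It was lower than the lowest Control ovary in 3 of 3 Aged ovaries.

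With CEFFE, Esr2 was at 1.17 from Aged on the log2 scale (SE 0.30), or 2.25-fold, and above every Aged ovary in 3 of 3 ovaries, but with an edgeR adjusted p of 0.168 the difference missed the threshold. The DESeq2 Wald test, which called 765 genes in this comparison against 1 by edgeR, gave 1.16 with an adjusted p of 0.0108. Against Control, Aged+CF ovaries were at -0.74 (SE 0.28, edgeR adjusted p = 0.281). Without the pair of ovaries that held oviduct RNA, Aged vs Control was -1.67 (edgeR adjusted p = 0.00683) and Aged+CF vs Aged was 0.89 (edgeR adjusted p = 0.103). A processed pseudogene, Gm7862, lies inside the Esr2 gene on the same strand without sharing an exon, and had 899 reads against 21304 for Esr2.

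The Esr2 promoter window is shown as that of the 1 gene of the 9 that passed the test (chr12:76177210-76177509, minus strand). It contains none of the 4 motifs searched, so no letter stands in capitals.
Esr2: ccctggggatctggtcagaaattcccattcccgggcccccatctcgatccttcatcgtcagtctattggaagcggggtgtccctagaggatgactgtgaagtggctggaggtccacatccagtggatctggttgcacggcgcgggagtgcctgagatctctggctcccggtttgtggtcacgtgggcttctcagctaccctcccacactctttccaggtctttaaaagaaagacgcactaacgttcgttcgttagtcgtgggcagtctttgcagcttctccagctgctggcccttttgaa
The window is richer in G and C than that of Nr5a2, at 56.0% against 42.0%, where the median over all windows was 52.7%.

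Markers of several cell types moved with the Aged group. The summed level of the 12 oocyte markers was 539.7 to 713 CPM in Control, 65.9 to 179.8 CPM in Aged and 239.5 to 361 CPM in Aged+CF, and that of the 10 granulosa cell markers was 6079 to 9351, 3929 to 6015 and 3493 to 6126 CPM. The 6 luteal cell markers summed to 1232 to 3748 CPM in Control, 6074 to 14757 CPM in Aged and 4690 to 9418 CPM in Aged+CF. Esr2 and the oocyte markers had the same order of groups without overlap, while the granulosa cell sums of Aged and Aged+CF covered each other. Some granulosa cell markers departed from their sum. Amh had the order of Esr2 without overlap, at 355 to 722 CPM in Control, 3.25 to 131 in Aged and 149 to 165 in Aged+CF. The median log2 fold change of this list from Aged to Aged+CF was 0.35, and 0 of 10 passed by edgeR. Inha, Gja1 and Cyp19a1 were lower with CEFFE, at -0.13, -0.59 and -0.80. The other markers of the list were higher, from 0.13 for Hsd17b1 to 1.08 for Amh. Inha and Gja1 weigh heavily in the sum, with 2015 and 1249 CPM of a mean of 4972 CPM in Aged. Among the oocyte markers, Kit was at -0.38 in Aged vs Control, where the others were at -2.97 to -2.12. Kit gave 54.2 of the 65.9 CPM of the oocyte sum in Aged replicate 34. No marker of these lists was at 0 in all ovaries. The part of these cell types in the differences of Esr2 and of the other genes was not tested.

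Wt1 lies at chr2:105126529-105173616 on the plus strand. The values of Wt1 were 51.8, 62.7, 63.5 and 57.0 CPM in Control, 42.2, 17.4 and 63.2 CPM in Aged and 60.3, 53.1 and 52.1 CPM with CEFFE. Aged replicate 33 had by far the lowest value, and Aged replicate 34 stood within the Control range. Surface epithelium markers, a second source of Wt1 in the ovary, summed to 56.6 CPM in Aged replicate 33, the lowest of the 10 ovaries, and to 419 CPM in Aged replicate 34, the highest, and their part in the Wt1 values was not tested. Wt1 was at -0.52 in Aged vs Control (log2, SE 0.32, edgeR adjusted p = 0.308) and at 0.43 in Aged+CF vs Aged (SE 0.34, edgeR adjusted p = 0.553). Both values turned on these ovaries. Without Aged replicate 33, Aged vs Control was -0.13 (edgeR adjusted p = 0.621), and without Aged replicate 34 it was -0.94 (edgeR adjusted p = 0.0407). Aged+CF vs Aged was 0.07 without the former and 0.87 without the latter. With both ovaries that held oviduct RNA left out, the values were -0.90 (edgeR adjusted p = 0.0764) and 0.87.

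Gata4, a zinc finger factor that acts with SF-1 on the inhibin and steroid genes, lies at chr14:63198922-63271692 on the minus strand. Gata4 stood at 218, 313, 204 and 221 CPM in Control, 116, 172 and 259 CPM in Aged and 175, 150.3 and 182 CPM with CEFFE. Control replicate 32 stood above the rest of its group, and the Aged values reached from under to over most of the Control values. Its log2 fold change from Control to Aged was -0.39 (SE 0.25, edgeR adjusted p = 0.316), and that from Aged to Aged+CF was -0.11 (SE 0.26, edgeR adjusted p = 0.864). The first ranged from -0.12 (edgeR adjusted p = 0.750) without Aged replicate 31 to -0.70 (edgeR adjusted p = 0.0381) without Aged replicate 34. It was -0.23 without Control replicate 32, and without both ovaries with oviduct RNA it was -0.76 (edgeR adjusted p = 0.0420). All Aged+CF ovaries lay under all Control ovaries, with a log2 fold change of -0.50 (SE 0.25, edgeR adjusted p = 0.388).

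Gata6, on chromosome 18, was the steadiest of the 9 genes, with a root mean square spread of 0.150 on the log2 scale over the 10 ovaries. The levels were 99.2, 94.6, 124 and 108 CPM in Control, 134, 104 and 96.3 CPM in Aged and 102, 107 and 107 CPM with CEFFE. The 3 groups overlapped throughout. Aged was at 0.07 from Control (log2, SE 0.13, edgeR adjusted p = 0.777), with the sign turned to -0.06 when libraries were scaled by total counts and 0.28 without both ovaries with oviduct RNA. Aged+CF was at -0.08 from Aged (SE 0.14, edgeR adjusted p = 0.797). Exons of the antisense gene 1010001N08Rik overlap those of Gata6, with 2646 reads against 19078 for Gata6.

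Nr0b1, the gene of DAX1 on the X chromosome (chrX:86191764-86195947, plus strand), had the fewest reads and, after Esr2, the largest difference. Its levels in Control were 12.4, 14.5, 15.0 and 15.0 CPM, those in Aged 6.08, 3.88 and 10.9 CPM and those with CEFFE 16.6, 8.50 and 14.9 CPM. All Aged ovaries lay under all Control ovaries, although Aged replicate 34 came close to the lowest of these, and Aged+CF replicate 32 lay within the Aged range while the other two Aged+CF ovaries reached Control levels. These values rest on 55 to 318 reads per ovary. Aged was at -1.02 from Control (log2, SE 0.33, edgeR adjusted p = 0.0645), or 2.03-fold lower, and Aged+CF was at 0.93 from Aged (SE 0.35, edgeR adjusted p = 0.245). Aged+CF and Control were at -0.09 (SE 0.32, edgeR adjusted p = 0.925).

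The Nr0b1 result depended on Aged replicate 34. Without that ovary Nr0b1 was -1.47 in Aged vs Control (edgeR adjusted p = 0.00829) and 1.40 for Aged+CF over Aged (edgeR adjusted p = 0.0431), and without both ovaries with oviduct RNA the values were -1.44 (edgeR adjusted p = 0.0188) and 1.40 (edgeR adjusted p = 0.0644). Without Aged replicate 33 they were -0.72 (edgeR adjusted p = 0.149) and 0.65 (edgeR adjusted p = 0.380). The DESeq2 Wald test on all ovaries gave -1.0 with an adjusted p of 0.0187 in Aged vs Control. The Nr0b1 window (chrX:86191525-86191824, plus strand) is shown for its AGGTCA half-site, in capitals, 126 bases before the start.
Nr0b1: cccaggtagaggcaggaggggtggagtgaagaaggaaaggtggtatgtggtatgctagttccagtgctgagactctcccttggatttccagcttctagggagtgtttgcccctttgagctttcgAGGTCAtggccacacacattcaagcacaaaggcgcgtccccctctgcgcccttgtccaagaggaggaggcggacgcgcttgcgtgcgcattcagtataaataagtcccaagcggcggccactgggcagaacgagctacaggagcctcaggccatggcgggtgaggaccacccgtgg
It holds no GATA site, and the half-site is a match of letters, not a measured site of binding.

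The Aged ovaries did not differ from Control in the same animals for every gene. Among Aged ovaries, Esr2, Nr5a2, Foxl2 and Gata6 were lowest in replicate 34, Wt1 and Nr0b1 in replicate 33, and Nr5a1 and Gata4 in replicate 31. The lowest Gata6 value was still within the Control range. Esr1 was at the Control level in Aged replicate 31 and higher in the other Aged ovaries. On the log2 scale the SD among Aged ovaries was above the median of all genes, 0.321, for 7 of 9 genes, from 0.419 for Esr1 to 0.991 for Nr5a2. Foxl2, with 0.094, and Gata6, with 0.249, were under it. Among Control ovaries, 3 of 9 genes (Nr5a1, Esr1 and Gata4) exceeded the median of 0.189, and among Aged+CF ovaries 5 of 9 exceeded that of 0.184, led by Nr0b1 with 0.512 and Esr2 with 0.488.

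**Figure D3:**
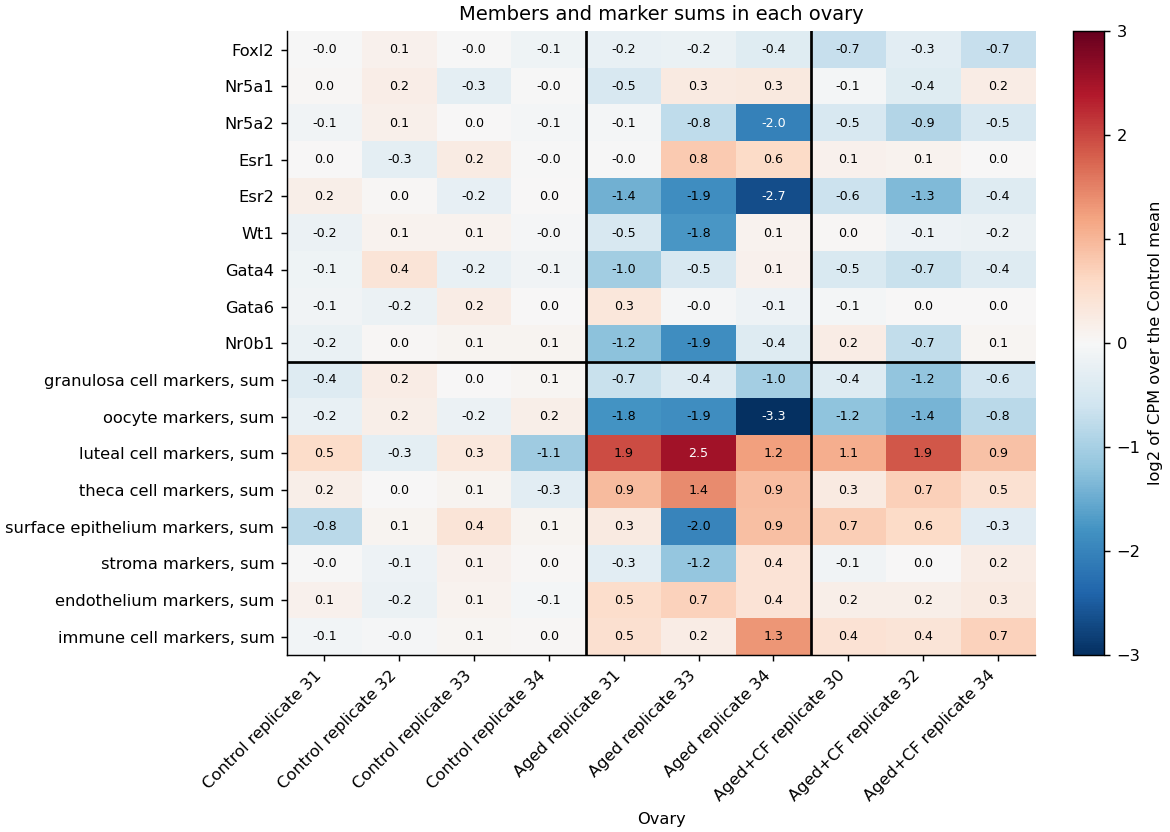
Level of each of the 9 genes and summed level of 8 lists of cell type markers in each ovary, as log2 of CPM over the mean of the Control ovaries (colour scale and printed values; blue lower, red higher), with ovaries in columns. Esr2 and the oocyte markers are under -1 in all Aged ovaries and also in Aged+CF replicate 32, and the oocyte markers in Aged+CF replicate 30 as well. Nr5a2, Wt1 and Gata4 are low in some Aged ovaries and near Control in others. The sums weigh abundant markers most: Cyp11a1 gave 10073 of the mean theca cell sum of 13234 CPM in Aged. Of the theca cell markers, Insl3, Ptch1 and Hhip were lower in Aged vs Control, at log2 fold changes of -1.38, -0.77 and -2.10, and the others higher.

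Levels can be set side by side only per length, for which the deposited FPKM were used, since CPM favours long transcripts. By mean FPKM in Control, Foxl2 stood first with 128 ± 9.15 FPKM (SD, n = 4), followed by Nr5a1 with 75.4 ± 9.77, Nr5a2 with 54.0 ± 3.94, Gata4 with 35.6 ± 6.98, Esr2 with 35.0 ± 3.87, Gata6 with 11.8 ± 1.57, Nr0b1 with 8.12 ± 0.724, Wt1 with 6.02 ± 0.562 and Esr1 with 2.92 ± 0.480 FPKM. Each gene was above the next in 4 of 4 Control ovaries except Gata4 over Esr2, which held in 2 of 4, so these neighbours did not differ beyond their spread. In Aged, the order was the same except that Esr2, with 8.50 ± 3.35 FPKM, moved below Gata6, with 11.3 ± 2.26, in 3 of 3 ovaries, and Nr0b1, with 3.72 ± 2.12, moved below Wt1, with 3.94 ± 2.38, in 2 of 3. The last 3 genes of the Aged order, Wt1, Nr0b1 and Esr1, lay within their spread of one another. Nr5a2 over Gata4 and Esr2 over Wt1 also held in only 2 of 3 Aged ovaries.

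In Aged+CF the order of Control was found again, with Esr2 at 20.5 ± 6.42 FPKM above Gata6 at 11.3 ± 0.184 FPKM in 3 of 3 ovaries. Foxl2, at 84.8 ± 13.1 FPKM, was above Nr5a1, at 71.5 ± 14.6 FPKM, in 2 of 3 Aged+CF ovaries, so their order there is within the spread. Nr0b1, at a mean of 7.44 FPKM, was above Wt1, at 5.51 FPKM, in 2 of 3 Aged+CF ovaries as well. The length behind the FPKM was the same in every ovary but exceeded the merged exon length of GENCODE for 7 of 9 genes, all but Foxl2 and Nr0b1. With the GENCODE length, Nr5a1 was first and Foxl2 second in Aged and Aged+CF, and Wt1 stood above Nr0b1 in Control and Aged+CF, while Esr2 remained between Gata4 and Gata6 in Control and Aged+CF and under Gata6 in Aged.

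**Figure D4:**
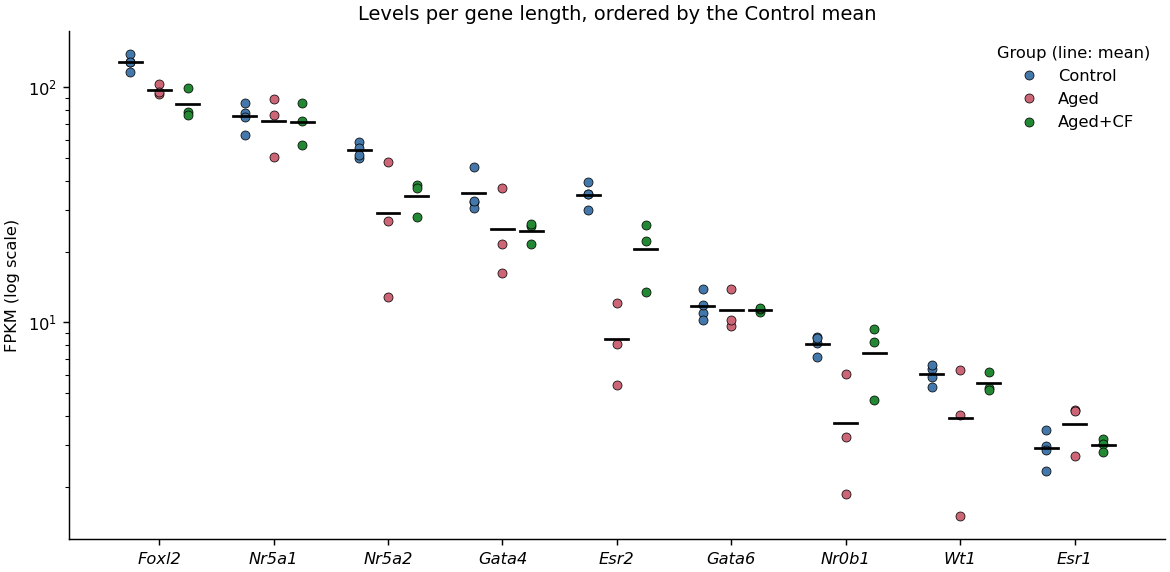
Level per gene length of the 9 genes, in FPKM on a log axis, ordered by the Control mean, with a point for each ovary and a line at the mean of each group. Esr2 lies under Gata6 in Aged alone, at 5.39 to 12.0 FPKM against 30.1 to 39.6 FPKM in Control.

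Among the genes are 3 pairs of paralogs, and their ratio within an ovary does not depend on how libraries are scaled. The ratios per length were compared on the log2 scale by two-sided exact permutation tests over ovaries, adjusted over 9 tests, in which 4 against 3 ovaries cannot give less than p = 0.029 and 3 against 3 not less than p = 0.1. The level of Esr2 was 13.3, 15.1, 8.61 and 12.3 times that of Esr1 in the Control ovaries, 4.47, 1.90 and 1.28 times in the Aged ovaries and 6.98, 4.43 and 9.18 times in the Aged+CF ovaries. Every Aged ovary thus had less Esr2 for its Esr1 than any Control ovary. Per length Esr2 was ahead in all 10. That lead depends on the length behind the FPKM, which was 19004 bases for Esr1 and 5299 for Esr2. By reads, Esr1 was ahead in Aged replicates 33, with 1314 against 696, and 34, with 1447 against 518. In the other ovaries Esr2 was ahead by reads as well. Differences between groups in the ratio do not depend on these lengths. The log2 ratio of Esr1 to Esr2 was -3.59 ± 0.35 (SD, n = 4) in Control and -1.15 ± 0.92 (n = 3) in Aged, a difference of 2.44 with an exact p of 0.029, the smallest possible, and an adjusted p of 0.129 in this exact test. In Aged+CF it was -2.72 ± 0.53 (n = 3), which differed from Aged by -1.57 (exact p = 0.2, adjusted p = 0.343) and from Control by 0.88 (exact p = 0.0857, adjusted p = 0.257).

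For Nr5a1 to Nr5a2 the log2 ratio averaged 0.48 ± 0.21 over Control, 1.45 ± 1.37 over Aged and 1.04 ± 0.15 over Aged+CF ovaries. The Aged values ran from 0.06 in replicate 31 to 2.80 in replicate 34, below and above all other ovaries. Aged and Control differed by 0.98 (exact p = 0.229, adjusted p = 0.343), and Aged+CF and Aged by -0.42 (exact p = 0.7, adjusted p = 0.788). The Aged+CF ovaries all lay above the Control ovaries, by 0.56 on average (exact p = 0.029, the smallest possible, adjusted p = 0.129). For Gata4 to Gata6 it averaged 1.59 ± 0.42 over Control, 1.08 ± 0.82 over Aged and 1.11 ± 0.16 over Aged+CF ovaries, and its 3 comparisons had exact p-values of 0.343, 0.8 and 0.114.

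**Figure D5:**
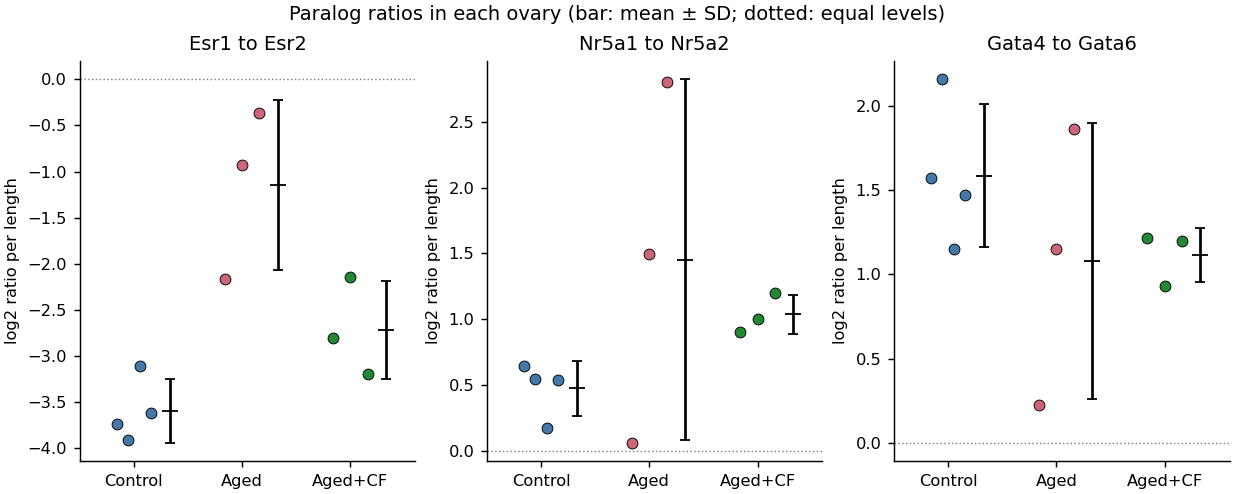
Log2 ratio per length of Esr1 to Esr2, Nr5a1 to Nr5a2 and Gata4 to Gata6 in each ovary (points), with the mean ± SD of each group as a bar and a dotted line at equal levels; the vertical axes differ between panels. The Esr1 to Esr2 ratio lies at -3.91 to -3.11 in Control and at -2.16 to -0.36 in Aged, without overlap.

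Of 20 genes that the 9 factors are known to act on or that serve as readouts of granulosa and steroid synthesis, 6 rose and 2 fell in Aged vs Control, with a median log2 fold change of -0.28. Over all genes tested 15.4% were called. The 4 with the smallest adjusted p were the cell cycle gene Ccnd2, which fell by 0.74 on the log2 scale (SE 0.13, edgeR adjusted p = 0.00874), the AMH receptor Amhr2, which fell by 0.82 (SE 0.16, edgeR adjusted p = 0.0124), the LH receptor Lhcgr, which rose by 1.80 (SE 0.36, edgeR adjusted p = 0.0127), and Cyp11a1, the first enzyme of steroid synthesis, which rose by 1.47 (SE 0.31, edgeR adjusted p = 0.0158). Luteal cells also use the steroid synthesis genes, and the luteal cell sums were higher in the same ovaries. The part of luteal cells in these differences was not tested. Lhcgr stands in the luteal list as well, Amhr2 in the granulosa cell list and Cyp11a1 in the theca cell list. Further genes are shared with the granulosa and theca cell lists, so the counts of these lists are not independent of each other. The count of 8 was 3 without Control replicate 32, 5 without Control replicate 34 and 5 without Aged replicate 33. In these fits 7.19%, 6.98% and 12.0% of all genes were called. Between Aged+CF and Aged, 0 of the 20 passed by edgeR, 4 had an unadjusted p under 0.05, and DESeq2 called 2. The shares of all genes were 0.00528%, 16.3% and 4.04% in turn.

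Of 20 other gonadal transcription factors, 19 passed the filter, and 0 rose and 3 fell in Aged vs Control, with a median of -0.08. Over all genes tested 15.4% were called, a share close to that of this list. Cbx2, a Polycomb protein of gonad development, fell by 1.30 (SE 0.23, edgeR adjusted p = 0.00949). Foxo1, a forkhead factor of growing granulosa cells, fell by 1.21 (SE 0.28, edgeR adjusted p = 0.0212). Zfpm2, which encodes FOG2, the partner protein of GATA4, fell by 0.76 (SE 0.16, edgeR adjusted p = 0.0161). With CEFFE against Aged, 0 of 19 passed by edgeR, 5 had an unadjusted p under 0.05 and DESeq2 called 1. Over all genes these shares were 0.00528%, 16.3% and 4.04%. Of 9 coregulators of nuclear receptors, such as Ncoa1 and Ncor1, 0 passed in Aged vs Control by edgeR or by DESeq2 and 1 had an unadjusted p under 0.05, with a median of 0.03. The shares of all genes there were 15.4% by edgeR, 22.6% by DESeq2 and 31.6% at the unadjusted p.

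Of the testis factors listed, Sry had 0 reads in each ovary, but it lies on the Y chromosome, which female mice lack. Dmrt1 had 1 read in all. Sox9 averaged 7.55 CPM over Control, 8.37 CPM over Aged and 7.67 CPM over Aged+CF ovaries, with a log2 fold change of 0.15 (SE 0.35, edgeR adjusted p = 0.809) in Aged vs Control. Of the 2 testis factors tested, 0 passed in either comparison by edgeR or by DESeq2, and 0 had an unadjusted p under 0.05. Adrenal cortex markers, listed since Nr5a1 and Nr0b1 are also adrenal genes, summed to at most 1.67 CPM in any ovary, and none of the 4 passed the filter.

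Among the lists of cell type markers in Aged vs Control, 9 of 12 oocyte markers and 2 of 10 granulosa cell markers (Amhr2 and Serpine2) fell. The share of all genes called was 15.4%, to which this granulosa cell count is close. All 6 luteal, 4 of 6 endothelium and 4 of 6 immune cell markers rose, and of 6 theca cell markers 1 rose and 1 fell. Other rules called more of the 10 granulosa cell markers, whose median log2 fold change was -0.87. At an unadjusted p under 0.05 with a fold change of at least 1.5, 6 passed, all lower in Aged, where the share was 18.2%. DESeq2 called 4 of the 10, where the share was 22.6%. Of 9 surface epithelium, 7 stroma and 3 tested oviduct markers, 0 passed by edgeR at the adjusted threshold or at an unadjusted p under 0.05, and 0 by DESeq2. The shares of all genes were 15.4%, 31.6% and 22.6% in turn. The oocyte count was between 4 and 10 and the luteal count between 2 and 6 when an ovary was left out in turn, lowest for the oocyte list without Control replicate 34 and for the luteal list without Control replicate 32 or Aged replicate 33. In those fits 6.98%, 7.19% and 12.0% of all genes were called. Between Aged+CF and Aged, 0 markers of any list passed by edgeR. There 4 of 12 oocyte, 3 of 6 endothelium, 2 of 6 theca and 2 of 6 immune cell markers had an unadjusted p under 0.05. So did 1 of 10 granulosa cell, 1 of 6 luteal and 1 of 7 stroma markers. The oocyte, granulosa cell and stroma markers among them were higher with CEFFE, and the endothelium, immune cell and luteal ones lower. Of the theca ones, Ptch1 was higher and Cyp17a1 lower. DESeq2 called 1 theca, 1 luteal and 1 endothelium marker. The shares of all genes were 0.00528% by edgeR, 16.3% at the unadjusted p and 4.04% by DESeq2.

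The genes most like each of the 9 in their profile over the 10 ovaries were searched among 16743 genes with a mean of at least 1 CPM, by the root mean square difference of log2 CPM after each gene's mean was taken off. All 10 ovaries enter this measure, group differences included, and it is given with no test. Esr2 was most like Ank3, with a difference of 0.147 where Esr2 itself spread by 0.896 around its mean, and next like Bend4, with 0.149. Ank3 averaged 69.3 CPM over Control, 15.8 CPM over Aged and 38.6 CPM over Aged+CF ovaries. For Nr5a2 the nearest were Lrrc2 (0.195) and Ccdc14 (0.210), and for Nr0b1 Galnt16 (0.198) and Fam184a (0.224). Wt1 was nearest to Mical2 (0.111) and to Wt1os (0.118), a gene on the opposite strand that starts 18 bases from Wt1, with the use of strand in counting unknown.

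For the genes that varied less, the nearest were Gm37486 (0.125) and Gtf2h4 (0.132) for Foxl2, Klhl25 (0.136) and Bcar3 (0.147) for Nr5a1, Gm4895 (0.0859) and Acaca (0.122) for Esr1, Slc38a1 (0.101) and Acy3 (0.114) for Gata4, and Glb1 (0.0522) and Haus2 (0.0825) for Gata6. None of the 9 had another of the 9 among its nearest genes. The closest pair within the set was Nr5a1 and Gata4, at 0.282, and Esr2 lay nearest to Nr5a2, at 0.510.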

How the data were processed

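RNA from 10 mouse ovaries was sequenced on an Illumina platform, 4 Control, 3 Aged and 3 Aged+CF, grouped by their labels. The files deposited by the authors hold read counts for each gene, not normalized, and FPKM values, which equal the count over a fixed gene length and the total of the column. The submitters' processing notes name TopHat, Cufflinks 2.1.1 and GRCm38.p4. The counting tool, the annotation and the use of strand are not given in the sources used here. Positions are from GENCODE M21.

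Counts were analysed with edgeR 4.0.16 in R 4.3.3: filter on low counts, TMM scaling, 1 quasi-likelihood fit of all 10 ovaries with a mean per group, F tests, and Benjamini-Hochberg adjustment over the 18956 genes tested. The code was tested on simulated counts. Marker sums are CPM added over a list. Ratios had 0.5 reads added and were tested with scipy 1.17.1. DESeq2 1.42.0 was an alternative, beside no filter, DESeq2 size factors, the compared groups alone, the replicate number as a block, other call rules and each ovary left out. Scaling by total counts, leaving out the 2 ovaries with oviduct markers over 100 CPM and the GENCODE length were added after the data were seen. No 2 libraries of a group were duplicates. The 9 genes and all lists were chosen with earlier results of these data known. The 9 genes are described in full, and of each further list up to 4 called genes with the smallest adjusted p were to be named, with the 2 most alike genes of each of the 9. The called genes of most marker lists are given as counts, and Sox9, Ncoa1 and Ncor1 were named in addition.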

Additional observations from a re-analysis of the deposited data

Results flagged for a closer look

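The Gata4 level of Control replicate 32, 313 CPM, stood apart from the other 3 Control ovaries, at 204 to 221 CPM. Its gap to the nearest of them was 0.848 of the group's range, past the 95% limit of Dixon's test for 4 samples. Of 12 values tested in the Control ovaries, 9 levels and 3 ratios, 1 was found, where chance alone gives about 1 in 20.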

How the results depend on the processing

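Of the 9 genes, Esr2 in Aged vs Control kept its direction in every alternative, between -2.18 and -1.61, and its side of the threshold in all but the replicate block. With the replicate number as a block, over the ovaries whose numbers are shared, Esr2 was -1.97 (edgeR adjusted p = 0.128), 0 of the 9 genes and 0 of 18310 genes were called in Aged vs Control, 0 of 18472 in Aged+CF vs Control, and Gata6 in the latter was 0.12 in place of -0.02. Ovaries of the same number came from different animals and their deviations correlated by 0.138, -0.185 and 0.070 between Aged and Control, so they were not treated as pairs. Aged+CF and Aged share 1 number, so that no such fit was made.

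The number of the 9 genes called in Aged vs Control, 1, was 2 by DESeq2's Wald test, by the unadjusted rule and with scaling by total counts (Esr2 and Foxl2), 3 without both ovaries with oviduct RNA, and 1 to 4 when an ovary was left out, highest without Aged replicate 34 and 3 without Aged replicate 31. The share of all genes called was 15.4% and became 22.6%, 18.2%, 17.3%, 17.8%, 22.3% and 11.0% in these in turn. In Aged+CF vs Aged, 0 became 1 by DESeq2 and 2 by the unadjusted rule, and 0 to 1 when an ovary was left out, with 1 only without Aged replicate 34, where 3.36% of all genes were called. In Aged+CF vs Control, 0 became 1 by DESeq2, by the unadjusted rule and with only the compared groups in the fit (3.21% of all genes). DESeq2 called 4275 genes in all in Aged vs Control against 2927 by edgeR, and leaving out Control replicate 34 left 1312.

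Signs turned only for differences that were not past the threshold, before or after. With scaling by total counts, Nr5a1 and Gata6 in Aged vs Control were -0.066 and -0.061, and Gata6 in Aged+CF vs Aged was 0.0053. Without both ovaries with oviduct RNA, Nr5a1 was -0.11 in Aged vs Control, Nr5a1, Nr5a2 and Gata4 were 0.0097, -0.25 and 0.22 in Aged+CF vs Aged, and Gata6 was 0.091 in Aged+CF vs Control. In that comparison Gata6 was 0.0035 with DESeq2's size factors, 0.0034 by its Wald test and 0.0039 with only the compared groups. With an ovary left out, the log2 fold changes ran as follows in Aged vs Control: from -0.030 to 0.31 for Nr5a1 and from -0.057 to 0.20 for Gata6. In Aged+CF vs Aged they ran from -0.33 to 0.033 for Nr5a1, from -0.25 to 0.63 for Nr5a2, from -0.36 to 0.22 for Gata4 and from -0.19 to 0.057 for Gata6. For Aged+CF vs Control they ran from -0.17 to 0.10 for Nr5a1, from -0.0062 to 0.17 for Esr1, from -0.070 to 0.066 for Gata6 and from -0.26 to 0.15 for Nr0b1. The log2 ratios in Aged+CF vs Aged ran from -1.11 to 0.26 for Nr5a1 to Nr5a2 and from -0.39 to 0.42 for Gata4 to Gata6. The cause of these changes was not tested.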
